A study of Mus musculus with 8 samples.

Results

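The genes described here encode 10 receptor chains for haematopoietic cytokines. They were chosen by function, as the entries of the FPKM table named Il3ra, Csf2rb, Csf2rb2, Csf2ra, Csf3r, Epor, Kit, Il4ra, Il2rg and Il6st, and all 10 were found among its 56748 genes. Of these chains, 6 passed the filter on low values, an FPKM (fragments on a gene, scaled by the length of the gene and by a total for the library) of at least 1 in at least 2 libraries, which left 11818 genes for testing. Csf2ra, Csf3r, Kit and Il6st did not pass it. The RNA came from 32D cells, an interleukin-3 (IL-3) dependent mouse line that the labels call myeloblast-like, in 8 libraries of 4 groups with 2 clones each. All cells had been transduced with murine Jak2, either the wild-type form (Jak2WT) or the constitutively active V617F form (Jak2V617F). Within each background, clones with intact glucose transporters (GLUT1/3 WT) were set beside clones whose Slc2a1 and Slc2a3 genes had been edited with CRISPR-Cas9 (GLUT1/3 dKO, called dKO below), the edited clones having been grown out from single cells. The medium of every group contained 2 ng/ml IL-3 beside 1 mM glutamine and 5 mM glucose, and RNA was taken after 24 h in it. The cells had also passed a round of dilution to single cells before editing, and the study lists a GLUT1 deletion of the same length for every dKO clone of a background, so these clones may share an edited founder and may not be independent edits. Each library is 1 clone, so a p-value here measures the spread between clones, and a trait of a clone cannot be told apart from its group where both clones share it.

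Cytokine receptors of this family have no kinase domain of their own and signal through JAK kinases bound to their tails, which phosphorylate STAT proteins. The IL-3 receptor pairs a ligand-specific alpha chain, encoded by Il3ra, with a signalling beta chain. The common beta chain Csf2rb serves IL-3, GM-CSF and IL-5, and mice have a second beta chain, Csf2rb2, that is used by IL-3 alone. Il4ra binds IL-4 and signals together with the common gamma chain Il2rg, Epor is the homodimeric erythropoietin receptor, and Epor and the beta chains signal through JAK2. Kit, the stem cell factor receptor, differs from the rest in being a receptor tyrosine kinase.

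The promoters of the chains that the results turn on are shown for Csf2rb2 and Il4ra, the most and the less abundant of the chains lower in Jak2V617F dKO clones, and for Epor, which was higher in both Jak2V617F groups. The sequences are RefSeq's in the build GRCm38.p6, run 5' to 3' along the gene and cover 250 bases before and 50 bases after the annotated start. They were found for 9 of the 10 genes, Csf2rb being the other one. Capitals mark matches on either strand to a STAT motif (TTCNNNGAA), a GATA motif (AGATAA or TGATAA) and an ETS motif (GGAAGT), and the hypoxia response motif ACGTG was searched as well. None of these motifs overlapped another in the windows shown.
Csf2rb2, chr15:78305672-78305971, reverse strand: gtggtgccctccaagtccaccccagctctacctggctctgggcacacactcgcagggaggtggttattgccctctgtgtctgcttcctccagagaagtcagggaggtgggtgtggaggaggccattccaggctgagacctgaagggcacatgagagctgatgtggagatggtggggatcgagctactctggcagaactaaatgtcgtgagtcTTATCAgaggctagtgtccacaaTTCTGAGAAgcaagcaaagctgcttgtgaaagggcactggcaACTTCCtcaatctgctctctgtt
Epor, chr9:21963527-21963826, reverse strand: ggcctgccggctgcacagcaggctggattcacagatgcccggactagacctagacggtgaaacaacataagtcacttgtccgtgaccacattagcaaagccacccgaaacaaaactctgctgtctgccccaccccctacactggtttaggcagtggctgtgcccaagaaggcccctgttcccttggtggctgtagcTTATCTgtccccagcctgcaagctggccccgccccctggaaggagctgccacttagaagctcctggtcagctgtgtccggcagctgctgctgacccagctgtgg
Il4ra, chr7:125552021-125552320, forward strand: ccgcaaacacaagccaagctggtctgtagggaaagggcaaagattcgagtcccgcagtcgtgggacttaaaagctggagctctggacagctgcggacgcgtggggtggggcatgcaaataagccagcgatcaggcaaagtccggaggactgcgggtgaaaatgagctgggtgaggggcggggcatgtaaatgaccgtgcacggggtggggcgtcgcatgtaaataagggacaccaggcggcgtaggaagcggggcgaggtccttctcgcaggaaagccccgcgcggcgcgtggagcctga
The Csf2rb2 window held a STAT motif 15 bases before the start, a GATA motif 38 bases before it and an ETS motif 28 bases after it. The Epor window held a GATA motif 54 bases before the start, and the Il4ra window held no match to any of the 4 motifs. Among the promoters of the other chains, Il3ra had an ETS motif 139 bases before its start and Csf2ra the hypoxia response motif 225 bases before it. In all 32851 promoters of the same length, a STAT motif was present in 8.30%, a GATA motif in 18.6%, an ETS motif in 23.8% and the hypoxia response motif in 19.6%. A match describes the letters alone, and binding was not measured.

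In the libraries as a whole, reads on genes numbered 16846011 to 48884329. The targeted gene Slc2a1, which encodes GLUT1, stood at 44.7 to 64.0 FPKM in the GLUT1/3 WT clones and at 9.17 to 17.3 FPKM in the dKO clones. Slc2a3, which encodes GLUT3, stood at 91.9 to 198 FPKM and 16.0 to 49.5 FPKM, the highest dKO value being that of Jak2WT dKO clone 3. Jak2, the transduced gene, was higher in the Jak2WT libraries, at 218 to 258 FPKM, than in the Jak2V617F libraries, at 139 to 165 FPKM. Of 4 granule genes that define myeloblasts, 3 were near 0 in every library, with Mpo at 0.0885 FPKM at most, Elane at 0.121 FPKM and Ctsg at 0.203 FPKM, while Prtn3 stood at 3.11 to 10.2 FPKM.

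The 2 beta chains were by far the most abundant of the receptors. Csf2rb2 (ENSMUSG00000071714, GRCm39 chr15:78166707-78189921, reverse strand) stood at 236 and 207 FPKM in Jak2WT GLUT1/3 WT clones 1 and 3, at 186 and 136 FPKM in the Jak2WT dKO clones, at 157 and 161 FPKM in the Jak2V617F GLUT1/3 WT clones, and at 62.5 and 56.2 FPKM in the Jak2V617F dKO clones. Csf2rb (ENSMUSG00000071713, chr15:78209952-78238047, forward strand) followed the same order, with 189.9 and 162 FPKM, 150.02 and 114 FPKM, 127 and 131 FPKM, and 55.4 and 48.9 FPKM. For both chains the Jak2WT GLUT1/3 WT clones were highest and the Jak2V617F dKO clones lowest without overlap, and between them the 2 other groups overlapped. Csf2rb2 ranked between the 93.2 and 98.7 percentile of the tested genes of a library, and Csf2rb between the 91.8 and 98.4 percentile.

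Il3ra (ENSMUSG00000068758, chr14:8113752-8123488, reverse strand), the alpha chain for IL-3, was expressed near the median of the tested genes, between the 45.9 and 57.3 percentile. It stood at 6.83 and 6.61 FPKM in the Jak2WT GLUT1/3 WT clones, 8.14 and 8.26 FPKM in the Jak2WT dKO clones, 8.26 and 9.38 FPKM in the Jak2V617F GLUT1/3 WT clones, and 8.89 and 7.99 FPKM in the Jak2V617F dKO clones. The Jak2WT GLUT1/3 WT clones were below all others, and the 6 other libraries lay between 7.99 and 9.38 FPKM.

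The interleukin-4 chains had intermediate levels. Il4ra (ENSMUSG00000030748, chr7:125151292-125178646, forward strand) stood at 14.7 and 13.8 FPKM, 12.9 and 11.0 FPKM, 21.1 and 19.4 FPKM, and 9.75 and 8.997 FPKM in the same order of groups. Its 4 groups did not overlap, with the highest and the lowest both in the Jak2V617F background. Il2rg (ENSMUSG00000031304, chrX:100307984-100311861, reverse strand) stood at 12.7 and 13.6 FPKM, 17.3 and 13.7 FPKM, 19.2 and 19.1 FPKM, and 15.04 and 12.1 FPKM. The Jak2V617F GLUT1/3 WT clones were above all others for Il2rg, and the Jak2V617F dKO clones overlapped both Jak2WT groups.

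Epor (ENSMUSG00000006235, chr9:21870193-21874802, reverse strand) stood at 3.87 and 3.68 FPKM in the Jak2WT GLUT1/3 WT clones, 3.68 and 3.31 FPKM in the Jak2WT dKO clones, 7.16 and 5.63 FPKM in the Jak2V617F GLUT1/3 WT clones, and 7.77 and 6.54 FPKM in the Jak2V617F dKO clones. All 4 Jak2V617F libraries were above all 4 Jak2WT libraries, and within the Jak2V617F background dKO and GLUT1/3 WT clones overlapped. In the reference annotation 42.6% of the exon bases of Epor overlap Swsap1 on the other strand, and the strand setting of the counting is not given in the sources used here. Swsap1 stood at 3.76 to 4.40 FPKM in the Jak2WT libraries and at 3.08 to 4.77 FPKM in the Jak2V617F libraries, so the 2 genes did not share the split between backgrounds.

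**Figure D1:**
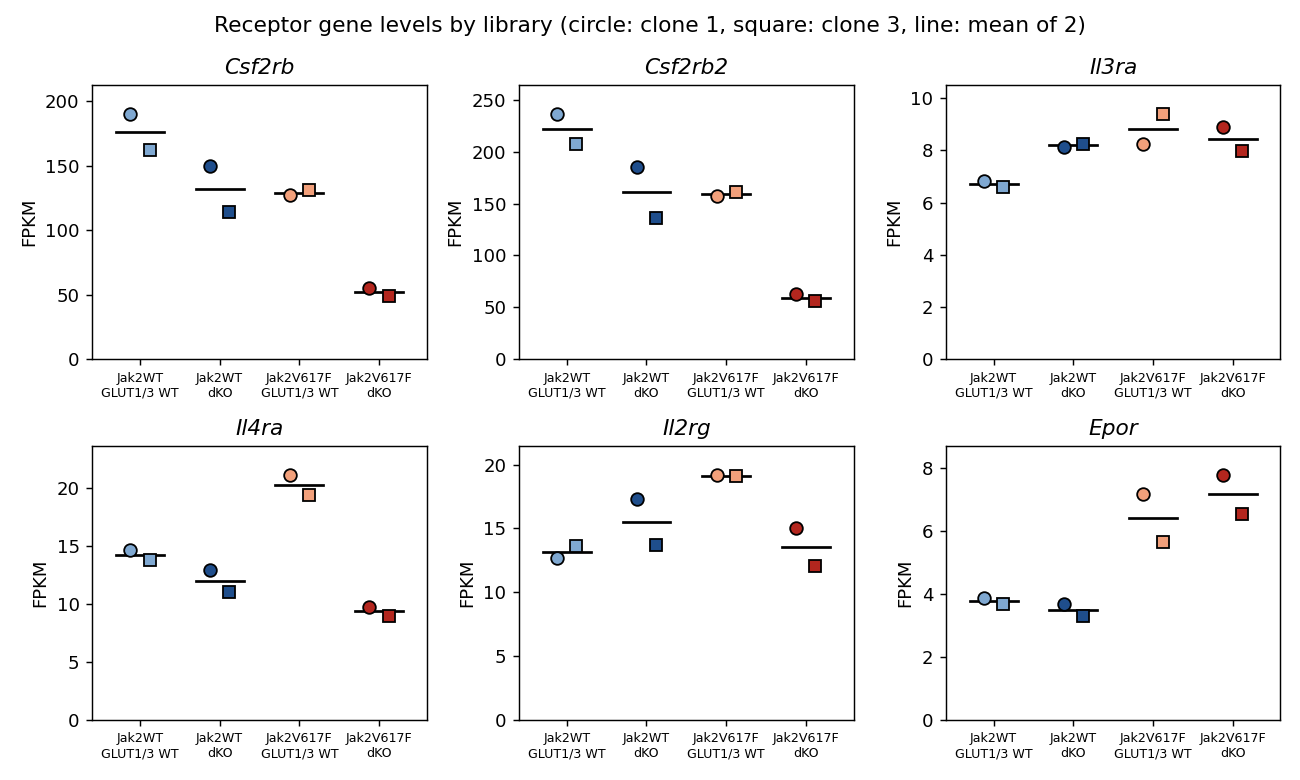
Levels of the 6 receptor genes that passed the filter, in FPKM on linear axes from 0, for the 4 groups. Circles are clone 1, squares clone 3 and lines the mean of the 2 clones, and the Jak2V617F dKO clones are lowest for Csf2rb, Csf2rb2 and Il4ra while both Jak2V617F groups are highest for Epor.

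The remaining 4 chains were listed at 0 or held at most 2 reads. Csf2ra (ENSMUSG00000059326), Kit (ENSMUSG00000005672) and Il6st (ENSMUSG00000021756), the alpha chain for GM-CSF, the stem cell factor receptor and the shared chain gp130 of the interleukin-6 family, were listed at 0 in all 8 libraries. Csf3r (ENSMUSG00000028859), the G-CSF receptor, had 1 read in Jak2V617F dKO clone 1, 2 reads in Jak2V617F dKO clone 3 and none elsewhere. An entry of 0 is not by itself a sign of absent transcripts, since 7012 of the 21970 protein-coding genes in the table (31.9%) were listed at 0 in every library, some of them broadly used, and whether the annotation or the counting upstream set such entries could not be worked out. No difference between groups could be tested for these 4 chains.

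Transcripts of the beta chains outnumbered those of the alpha chain for IL-3 in every library. The summed FPKM of Csf2rb and Csf2rb2 was 62.4 and 55.9 times that of Il3ra in the Jak2WT GLUT1/3 WT clones, 41.3 and 30.3 times in the Jak2WT dKO clones, 34.4 and 31.1 times in the Jak2V617F GLUT1/3 WT clones, and 13.3 and 13.1 times in the Jak2V617F dKO clones. The Jak2WT dKO and Jak2V617F GLUT1/3 WT clones overlapped, and the Jak2V617F dKO clones were below all others, at 13.2 ± 0.083 (SD, n = 2) against 32.8 ± 2.35 (SD, n = 2) in its GLUT1/3 WT counterpart. The ratios are a description and were not tested. FPKM ratios compare transcript levels per length and not receptor proteins at the surface.

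**Figure D2:**
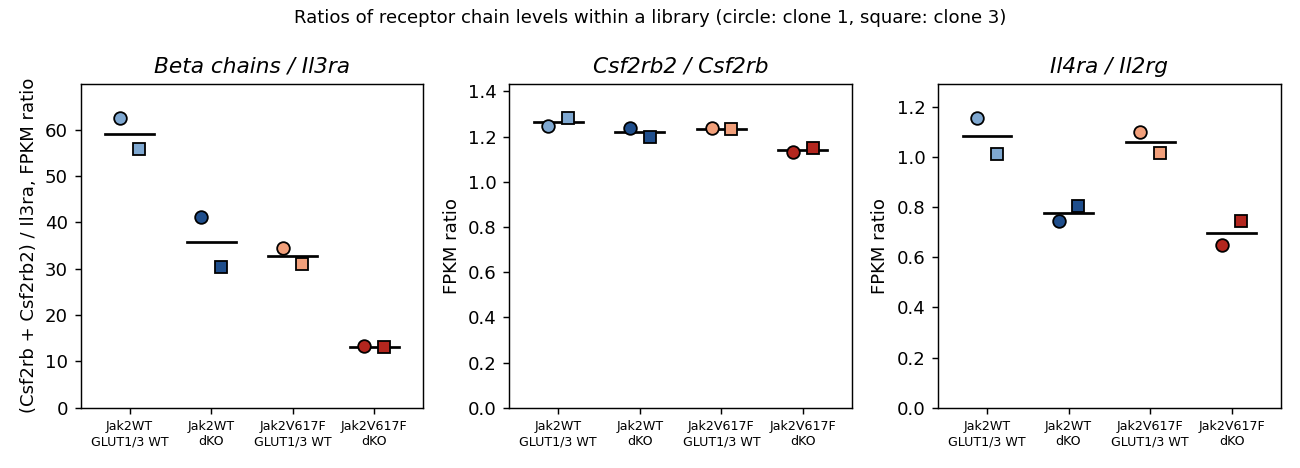
Ratios of FPKM within each library, on linear axes from 0, for the summed beta chains over Il3ra, Csf2rb2 over Csf2rb, and Il4ra over Il2rg. Circles are clone 1, squares clone 3 and lines group means, and the beta to alpha ratio falls from 55.9 to 62.4 in the Jak2WT GLUT1/3 WT clones to 13.1 to 13.3 in the Jak2V617F dKO clones.

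Csf2rb2 exceeded Csf2rb in each of the 8 libraries, by a narrow range of 1.13 to 1.28 times, with the Jak2V617F dKO clones at the low end (1.13 and 1.15). The pair are close copies whose reads the counting could split. Their exons were 91.5% identical over 4613 aligned positions of the reference genome, the longest identical run was 242 bases, and runs of at least 100 identical bases covered 9.23% of the exon bases of Csf2rb and 9.77% of those of Csf2rb2. How far this affects the values of each paralog alone was not measured, so the reads of both were also tested as 1 feature. For Il4ra over Il2rg, the ratio was 1.01 to 1.15 in the 4 GLUT1/3 WT libraries and 0.648 to 0.806 in the 4 dKO libraries, which did not overlap.

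Loss of GLUT1/3 in the Jak2V617F background went with lower transcript levels of both beta chains, Il4ra and Il2rg. Csf2rb2 fell by 1.41 on the log2(FPKM + 1) scale (95% interval -1.76 to -1.06, limma adjusted p = 0.00102), its mean being 2.68 times as high in the GLUT1/3 WT clones. Csf2rb fell by 1.29 (-1.63 to -0.95, limma adjusted p = 0.00126) and Il4ra by 1.04 (-1.27 to -0.80, limma adjusted p = 0.000713). Il2rg fell by less, 0.48 (-0.79 to -0.16, limma adjusted p = 0.0345). Il3ra and Epor did not pass the test, with differences of -0.06 (-0.27 to 0.15) and 0.14 (-0.15 to 0.44). In all, 4 of the 6 tested chains were called, all lower, where 29.9% of all tested genes were called and 16.2% were lower. The median difference of the 6 chains was -0.76, beside -0.02 for all tested genes. Groups did not overlap for 4 of the 6 chains, as for 64.3% of all genes. The summed reads of Csf2rb and Csf2rb2 fell by 1.35 (limma adjusted p = 0.00115). In bulk RNA, fewer cells with a transcript and less transcript per cell cannot be told apart.

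The calls of Csf2rb, Csf2rb2 and Il4ra held under every alternative run, with adjusted p-values of limma up to 0.0131. The call of Il2rg was lost without any 1 of 5 libraries, with adjusted p-values of 0.0573 and 0.0577 without Jak2WT GLUT1/3 WT clones 1 and 3, of 0.113 and 0.101 without Jak2V617F GLUT1/3 WT clones 1 and 3, and of 0.137 without Jak2V617F dKO clone 3.

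Other lineage markers moved in the same comparison. The summed FPKM of the erythroid markers was 778 to 1144 in the Jak2V617F GLUT1/3 WT clones and 2852 to 5085 in the Jak2V617F dKO clones, and of the 11 erythroid markers tested 8 were higher and 1 lower, where 29.9% of all tested genes were called, 13.7% higher and 16.2% lower. None of the 16 erythroid markers in the table was at 0 in every library. Of the 3 granulocyte and monocyte progenitor markers tested, 2 were lower, and the summed level of that list was 30.2 to 34.5 FPKM against 9.90 to 19.2 FPKM. Of the 5 megakaryocyte markers tested, 3 were higher by limma while voom called 1, with summed levels of 183 to 193 FPKM against 194 to 248.95 FPKM. Most of that sum was Itga2b, which overlapped, at 169 and 179 FPKM in the GLUT1/3 WT clones and 184 and 172 FPKM in the dKO clones. Pf4 stood at 0 and 0.326 FPKM in the GLUT1/3 WT clones and at 28.2 and 2.03 FPKM in the dKO clones, and Ppbp at 0 and 0.155 FPKM and at 18.5 and 3.92 FPKM. The neutrophil marker Cxcr2, 1 of 7 tested, was higher by 2.24, and the summed level of that list was 8.49 to 8.83 FPKM against 33.4 to 36.8 FPKM. Most of the sum in the dKO clones was Cxcr2 itself. It stood at 4.305 and 4.68 FPKM in the GLUT1/3 WT clones and at 29.7 and 20.97 FPKM in the dKO clones. Ngp stood at 0.229 and 0.494 FPKM and at 1.11 and 8.76 FPKM. Ltf, S100a8, S100a9 and Mmp9 overlapped, and Mmp8 reached 0.147 FPKM at most. The lymphoid marker Cd79b was higher by 0.52, and neither of the 2 mast cell and basophil markers tested was called. The part of these shifts in the receptor values was not tested.

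In the Jak2WT background, none of the 6 tested chains passed the test after loss of GLUT1/3, where 13.7% of all tested genes did, 7.62% higher and 6.06% lower. Csf2rb2 differed by -0.47 (-0.82 to -0.12, limma adjusted p = 0.0759), Csf2rb by -0.42 (-0.76 to -0.08, limma adjusted p = 0.0963) and Il4ra by -0.24 (-0.47 to -0.0033, limma adjusted p = 0.153). Il3ra differed by 0.25 (0.04 to 0.46, limma adjusted p = 0.102), Il2rg by 0.21 (-0.10 to 0.53) and Epor by -0.09 (-0.39 to 0.21). At an unadjusted p under 0.05 there were 4 of the 6, beside 31.6% of all tested genes, and the groups did not overlap for all 6, as for 66.2% of all genes. With libraries scaled to the same total, or with voom on the reads recovered from FPKM, 3 chains were called lower, namely Csf2rb, Csf2rb2 and Il4ra. Their adjusted p-values were 0.0473, 0.0371 and 0.0447 with the same total and 0.0262, 0.0194 and 0.0362 with voom. Lineage markers also moved here, with 3 of 11 erythroid markers higher (summed 281 to 300.4 FPKM in GLUT1/3 WT and 455 to 481 FPKM in dKO clones), 3 of 5 megakaryocyte markers higher (65.1 to 65.8 and 89.4 to 94.4 FPKM) and 2 of 7 neutrophil markers higher (86.6 to 217 and 84.6 to 144 FPKM). None of the 3 granulocyte and monocyte progenitor markers was called by limma, 2 having an unadjusted p under 0.05 and voom calling 1, and their list summed to 52.5 to 53.1 and 34.5 to 35.8 FPKM. The part of these shifts in the receptor values was not tested.

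The dKO effect of 3 chains differed between the backgrounds. The difference of the log2 fold changes, Jak2V617F minus Jak2WT, was -0.94 for Csf2rb2 (-1.43 to -0.45, limma adjusted p = 0.0360), -0.87 for Csf2rb (-1.35 to -0.39, limma adjusted p = 0.0401) and -0.80 for Il4ra (-1.13 to -0.47, limma adjusted p = 0.0188). In this test 10.6% of all genes were called, and 5.91% with a lower effect in Jak2V617F. Il2rg missed the threshold at -0.69 (-1.14 to -0.24, limma adjusted p = 0.0615). Its dKO clones lay below GLUT1/3 WT in Jak2V617F. In Jak2WT they lay barely above, with dKO clone 3 at 13.69 FPKM and GLUT1/3 WT clone 3 at 13.64 FPKM, and that difference was not called. Il3ra differed by -0.31 (-0.61 to -0.01, limma adjusted p = 0.151) and Epor by 0.23 (-0.19 to 0.65, limma adjusted p = 0.417). The 3 calls did not all hold when most single libraries were left out, which leaves 1 clone in a group. Fewer of all tested genes were called in most of these fits as well. The differences then ran from -1.16 to -0.72 for Csf2rb2, -1.07 to -0.68 for Csf2rb and -0.91 to -0.69 for Il4ra. Without the filter on low values none of the 3 was called (adjusted p of 0.116 for Csf2rb, 0.109 for Csf2rb2 and 0.0570 for Il4ra), and with libraries scaled to the same total Csf2rb (0.0671) and Csf2rb2 (0.0535) were not.

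**Figure D3:**
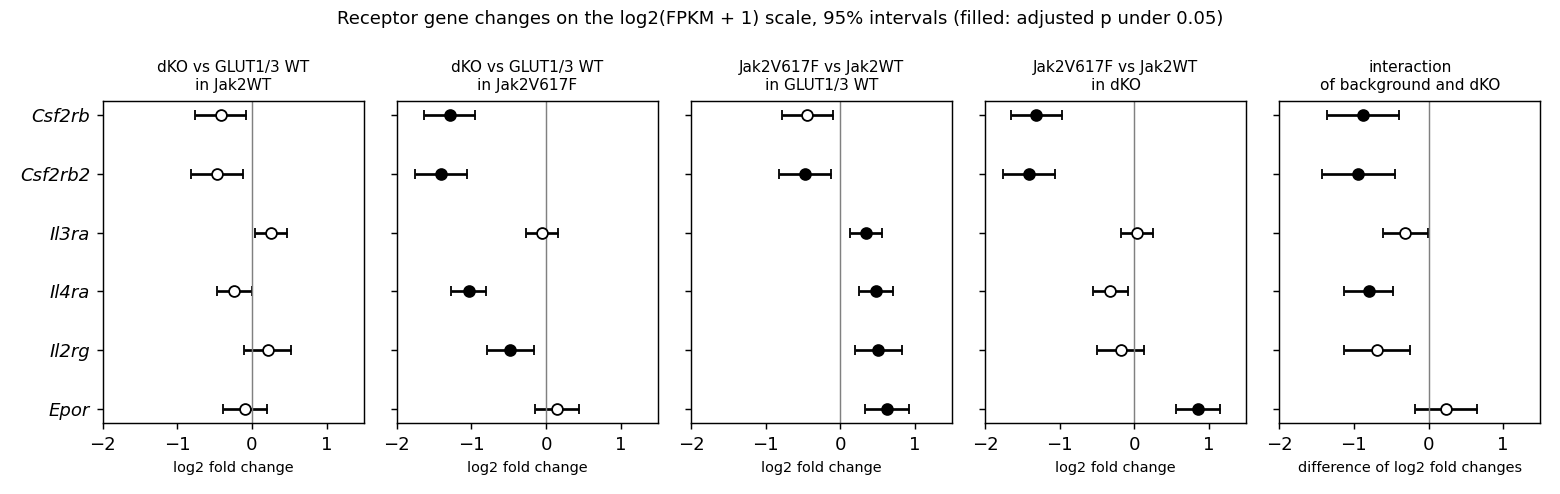
Differences of the 6 tested receptor genes on the log2(FPKM + 1) scale in the 4 comparisons and in the interaction, with 95% intervals from limma. Filled points have an adjusted p under 0.05, and the beta chains and Il4ra lie well below 0 after loss of GLUT1/3 in Jak2V617F, at -1.41, -1.29 and -1.04.

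With GLUT1/3 intact, the Jak2V617F clones had more transcript of 4 chains and less of Csf2rb2 than the Jak2WT clones. Epor was higher by 0.62 (0.33 to 0.92, limma adjusted p = 0.0105), Il2rg by 0.51 (0.19 to 0.82, limma adjusted p = 0.0273), Il4ra by 0.48 (0.25 to 0.71, limma adjusted p = 0.0112) and Il3ra by 0.35 (0.14 to 0.56, limma adjusted p = 0.0251). Csf2rb2 fell by 0.47 (-0.82 to -0.12, limma adjusted p = 0.0489), while Csf2rb, at -0.44 (-0.78 to -0.10, limma adjusted p = 0.0565), and the reads of both together, at -0.46 (limma adjusted p = 0.0534), missed the threshold. Thus 5 of 6 chains were called, 4 higher and 1 lower, where 30.3% of all tested genes were called, 15.3% higher and 14.9% lower. The groups did not overlap for all 6 chains, as for 69.4% of all genes. The calls did not all hold when 1 library of the 2 groups was left out, which leaves 1 clone in a group. Fewer of all tested genes were called in these fits as well. The differences kept their sign, from 0.47 to 0.77 for Epor, 0.46 to 0.56 for Il2rg and 0.42 to 0.54 for Il4ra. Those of Il3ra ran from 0.26 to 0.43 and those of Csf2rb2 from -0.57 to -0.38. Without the filter on low values the calls of Il3ra, Il2rg and Csf2rb2 were lost (adjusted p of 0.0548, 0.0822 and 0.137). Il3ra also lost its call with the same total (0.171) and with voom (0.125) and Il2rg with the same total (0.0592), while Csf2rb gained one with the same total (0.0180), with voom (0.0101) and with only the groups compared (0.0368). The Jak2V617F GLUT1/3 WT clones also serve as the reference of the dKO comparison in that background, so a high value there enters both. Erythroid markers differed between these groups too, with 6 of 11 higher and 1 lower, beside the 30.3% of all genes called, and summed levels of 281 to 300.4 FPKM in the Jak2WT and 778 to 1144 FPKM in the Jak2V617F clones, and their part in the receptor values was not tested.

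Among the dKO clones, the beta chains were lower and Epor higher in Jak2V617F than in Jak2WT. Csf2rb2 fell by 1.41 (-1.76 to -1.06, limma adjusted p = 0.00160), Csf2rb by 1.31 (-1.65 to -0.97, limma adjusted p = 0.00203) and both together by 1.36 (limma adjusted p = 0.00186). Epor was higher by 0.86 (0.56 to 1.15, limma adjusted p = 0.00554), a ratio of means of 2.05. Il4ra at -0.32 (-0.55 to -0.09, limma adjusted p = 0.0679), Il2rg at -0.18 (-0.50 to 0.13) and Il3ra at 0.04 (-0.17 to 0.25) did not pass. The count was 3 of 6 chains, where 17.1% of all genes were called, 7.12% higher and 9.96% lower, and groups did not overlap for 4 of 6 chains, as for 60.6% of all genes. These 3 calls held under every alternative run, with limma adjusted p-values up to 0.0421. Erythroid markers differed between these groups as well, with 9 of 11 higher, beside 7.12% of all genes, and their summed level was 455 to 481 FPKM in the Jak2WT dKO clones against 2852 to 5085 FPKM. Of the 3 granulocyte and monocyte progenitor markers tested, 1 was lower, beside 9.96% of all genes. Their list summed to 34.5 to 35.8 FPKM in the Jak2WT dKO clones against 9.90 to 19.2 FPKM. Whether the level of Epor follows the erythroid markers, or that of the beta chains the progenitor markers, was not tested.

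The genes whose pattern over the 8 libraries was most like that of a receptor were taken from all tested genes by Pearson's r on log2(FPKM + 1), as a description in which all points share libraries and groups. Each beta chain was closest to the other, with r = 1.000, and next to Tnfrsf26, with r = 0.990 for Csf2rb and 0.992 for Csf2rb2. The mean of Tnfrsf26 was 7.06 FPKM in Jak2WT GLUT1/3 WT, 4.77 and 4.72 FPKM in the middle groups and 1.80 FPKM in Jak2V617F dKO. The third genes were Magi3 for Csf2rb, at 0.984, and Apobr for Csf2rb2, at 0.985. Il4ra was closest to Ccni (0.993), Arpc1a (0.988) and Vps4b (0.988), Il2rg to Emc10 (0.981), Sdsl (0.977) and Tprkb (0.972), Il3ra to Chuk (0.982), Slc9a8 (0.977) and Srrd (0.960), and Epor to Mras (0.987), Adnp (0.982) and Trim58 (0.981). Of the receptors among each other, Il4ra and Il2rg had r = 0.730, Csf2rb and Il4ra 0.667, and Csf2rb and Epor -0.683.

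Among 34 other cytokine receptor chains, 17 passed the filter on low values. After loss of GLUT1/3 limma called none of them in Jak2WT, where 4 had an unadjusted p under 0.05 (31.6% of all tested genes did) and voom called 1, and in Jak2V617F 2 were higher and 6 lower. Of all tested genes 13.7% and 29.9% were called in these comparisons. Il2rb, the beta chain that shares Il2rg in the IL-2 and IL-15 receptors, fell by 1.38, and its effect differed between the backgrounds by -1.41 (limma adjusted p = 0.0176). The interferon receptor chains Ifnar2 and Ifngr2 fell by 0.59 and 0.62, Tnfrsf1a by 0.63, Il10rb by 0.57 and Il17ra by 0.41, while Il21r and Il27ra were higher by 0.74 and 0.68. The difference between the backgrounds was also called for Ifnar2 (-0.81) and Tnfrsf1a (-0.52). The median of the 17 chains was -0.15 in Jak2V617F and 0.08 in Jak2WT.

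**Figure D4:**
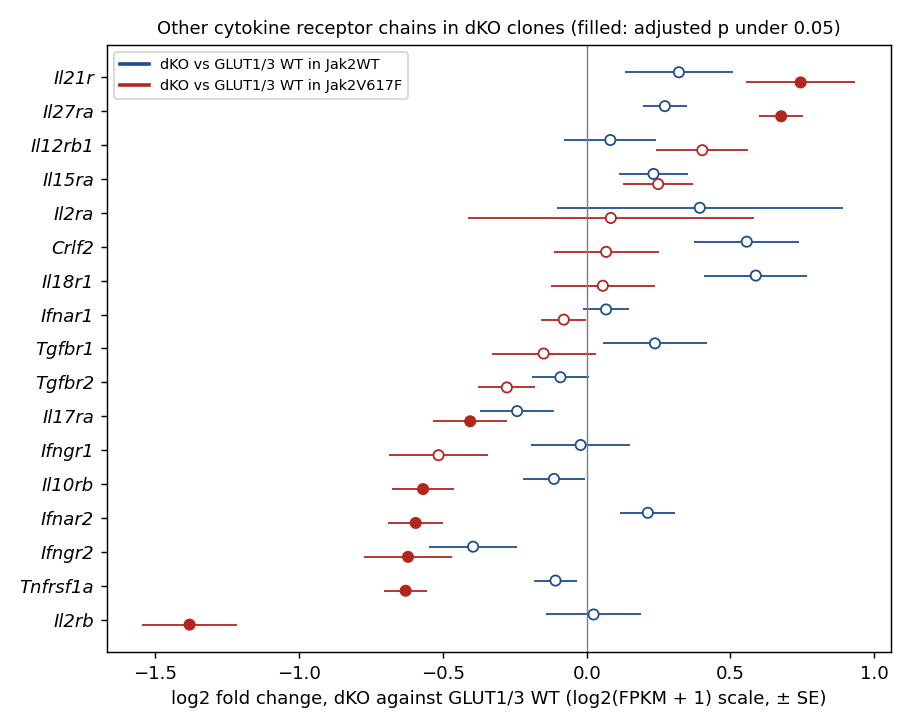
Differences between dKO and GLUT1/3 WT clones for the 17 other cytokine receptor chains tested, on the log2(FPKM + 1) scale with standard errors from limma, in Jak2WT (blue) and Jak2V617F (red). Filled points have an adjusted p under 0.05, which 8 chains reach in Jak2V617F, from Il2rb at -1.38 to Il21r at 0.74, and none in Jak2WT.

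Between the backgrounds, some of the other chains differed as well. With GLUT1/3 intact 4 of the 17 were higher and 5 lower in Jak2V617F, where 30.3% of all tested genes were called, and among the dKO clones 0 were higher and 7 lower, where 17.1% were called. Il2ra, the alpha chain of the IL-2 receptor, was lower in these comparisons (log2 differences of -4.24 and -4.55), standing at 18.4 to 59.3 FPKM in the Jak2WT libraries and at 0.986 FPKM or less in the Jak2V617F libraries.

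Of 13 kinases and STAT proteins that act below these receptors, all passed the filter. In Jak2V617F, loss of GLUT1/3 went with 2 higher and 6 lower, and in Jak2WT with 1 higher and 2 lower, where 29.9% and 13.7% of all tested genes were called. Lyn, a Src family kinase linked to the beta chains, fell by 0.71 in Jak2V617F, Stat6, which acts below Il4ra, by 0.52, Stat3 by 0.46, Fes by 0.42, Jak3, the partner of Il2rg, by 0.36, and Jak1 by 0.29. Stat2 and Stat5a were higher, by 0.33 and 0.34. Stat6 also fell in Jak2WT, by 0.55. Among 20 adaptors and negative regulators, 3 were higher and 4 lower in Jak2V617F, where 29.9% of all tested genes were called, with Gab2 lower (-0.81) and the feedback inhibitors Socs1, Socs3 and Cish higher by 0.95, 0.91 and 0.48. Socs1 was low in the Jak2V617F GLUT1/3 WT clones, at 0.145 and 0.311 FPKM. The other Socs genes of the list did not move alike in Jak2V617F. Socs4, Socs5 and Socs7 were lower in both dKO clones, Socs6 was higher in both and Socs2 overlapped. In Jak2WT 1 gene of the list was higher and 1 lower, where 13.7% of all genes were called.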

How the data were processed

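Poly(A) RNA of 8 libraries, 2 clones for each of 4 groups, was sequenced by the provider. The authors cleaned the reads with fastp (1.0.1), aligned them to mm39 (GRCm39) with HISAT2 (2.2.1), counted them per gene with featureCounts (2.0.6), as named in the paper's methods or the submitters' processing notes, and deposited FPKM for 56748 genes. The strand setting, the treatment of reads with several matches and the annotation version are not given in the sources used here. Multiplied by gene length, 100% of the values above 0 were whole multiples of a step particular to the library, within 0.01 of that step, which returned the reads per gene. Their totals on genes were 16846011 to 48884329, so counting noise was small for the beta chains (6715 to 54712 reads) and larger for Epor (127 to 537 reads).

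Genes reaching an FPKM of 1 in 2 or more libraries were tested with limma (3.58.1, R 4.3.3) on log2(FPKM + 1), as 4 group means with an intensity trend and Benjamini-Hochberg adjustment over all 11818 tested genes at 0.05. The added 1 understates changes of low genes. The fit had 4 residual degrees of freedom and 3.34 more from the spread shared across genes, and intervals are 95%. On simulated data for the dKO comparison in Jak2V617F with 11441 genes, 173 of 200 changes of 2-fold were recovered (86.5%) and 15 other genes called. With no change simulated, 4 of 11449 genes were called. The simulation gave every gene the same spread between clones. Clones of the data can differ more, as Slc2a3 did at 16.0 and 49.5 FPKM in Jak2WT dKO, so this recovery need not hold for them. The reads of Csf2rb and Csf2rb2 were also summed as 1 feature. The alternatives are given in the closing section. Named genes are the 10 receptors, Slc2a1, Slc2a3 and Jak2, the 3 genes most like each tested receptor, and called members of lists of other receptor chains, ligands, kinases and STATs, adaptors and negative regulators, transcription factors, and erythroid, mast cell, granulocyte progenitor, neutrophil, megakaryocyte and lymphoid markers. Mpo, Elane, Ctsg and Prtn3 were named as a check of the cell label. The receptors and all lists were chosen with earlier results of these data known. Some items that these rules cover are not reported here. Promoters came from RefSeq (GRCm38.p6), and exon identity from GRCm39 with blastn. Figures were made with matplotlib (3.10.9).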

Additional observations from a re-analysis of the deposited data

Results flagged for a closer look

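For 3 receptor chains the dKO effect differed between the Jak2V617F and Jak2WT backgrounds in the interaction test of limma. The difference of log2 fold changes was -0.94 for Csf2rb2, -0.87 for Csf2rb and -0.80 for Il4ra, with adjusted p-values of 0.0360, 0.0401 and 0.0188. Over the alternatives the adjusted p-values ran from 0.0241 to 0.123 for Csf2rb2, from 0.0315 to 0.131 for Csf2rb and from 0.0120 to 0.0858 for Il4ra, and the sign stayed negative in all of them.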

How the results depend on the processing

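The alternatives were a pseudocount of 0.1, no filter on low values, scaling to the same total, scaling by the median ratio, voom, a fit of only the groups compared (which the interaction cannot have), a block for the clone number, the summed reads of Csf2rb and Csf2rb2 in place of each, and the omission of 1 library at a time. Of the single values recomputed, 379 kept their direction and side of the threshold, 55 lost a call, 14 gained one and 6 changed sign. The number of receptors called after loss of GLUT1/3 in Jak2WT rose from 0 to 3 with the same total and to 3 with voom. The share of all genes called there rose as well, from 13.7% to 17.6% and 22%. Without the filter, which adds genes to the adjustment, 2 in place of 5 were called between backgrounds with GLUT1/3 intact. Of all genes 10.2% were called there in place of 30.3%. In the interaction 0 in place of 3 were called without the filter, and the same total gave 1. Of all genes 1.34% and 13.3% were called there in place of 10.6%. Leaving out 1 library at a time leaves 1 clone in a group. After loss of GLUT1/3 in Jak2V617F, Csf2rb2 then differed by -1.49 to -1.33, Csf2rb by -1.38 to -1.21 and Il4ra by -1.09 to -0.98. Il2rg differed by -0.63 to -0.33 there. In Jak2WT the ranges were -0.69 to -0.25 for Csf2rb2 and -0.62 to -0.22 for Csf2rb. The call of Il2rg after loss of GLUT1/3 in Jak2V617F was lost with the same total, without the filter and with only the groups compared (adjusted p of 0.0525, 0.0967 and 0.0743). The sign changes were of values near 0, for Il3ra after loss of GLUT1/3 in Jak2V617F (-0.06), with 0.027 under the same total, 0.028 under voom, 0.026 without Jak2V617F GLUT1/3 WT clone 3 and 0.012 without Jak2V617F dKO clone 3, for Epor in that comparison, with -0.0054 without Jak2V617F GLUT1/3 WT clone 3, and for Il3ra between the backgrounds of the dKO clones, with -0.033 without Jak2V617F dKO clone 1. The cause was not tested.

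Scaling to the same total moved the median of all genes from 0.01 to -0.12 between backgrounds with GLUT1/3 intact and from -0.04 to 0.12 in the interaction, and voom moved it to -0.10 and 0.11. The share of higher genes among those called, 55.7% for loss of GLUT1/3 in Jak2WT, 45.7% in Jak2V617F, 50.7% between backgrounds with GLUT1/3 intact and 44.4% in the interaction, became 33.9%, 60.2%, 29.5% and 75.0% with the same total and 39.1%, 59.2%, 34.5% and 69.7% with voom. The clone numbers did not pair the libraries, since the differences between clones 1 and 3 of any pair of groups correlated at -0.25 to 0.15 over genes. With this block, 0 and 4 receptors were called after loss of GLUT1/3 in Jak2WT and Jak2V617F, beside 11.2% and 27.3% of all genes. Between backgrounds 6 were called with GLUT1/3 intact and 4 among dKO clones, beside 28.4% and 15% of all genes. In the interaction 3 were called, beside 8.09%. The added ones were Csf2rb with GLUT1/3 intact (limma adjusted p = 0.0333) and Il4ra among dKO clones (limma adjusted p = 0.0450).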

Other observations

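Of 18 ligands of these receptors, 4 passed the filter and 7 were listed at 0 in every library. Il15, a ligand that signals through Il2rg, fell by 0.97 after loss of GLUT1/3 in Jak2WT and by 1.74 in Jak2V617F, a difference of -0.77 between the backgrounds (limma adjusted p = 0.0492). Osm was higher by 1.04 and 0.64 in the same comparisons. Between the backgrounds with GLUT1/3 intact, Il6 and Lif were lower in Jak2V617F (-2.204 and -1.28) and Il15 was higher by 1.31.

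Transcription factors known to bind receptor genes were counted as well, 16 of 18 passing the filter. After loss of GLUT1/3, 4 were higher and 5 lower in Jak2V617F and 2 were higher and 1 lower in Jak2WT, where 29.9% and 13.7% of all tested genes were called. Cebpe, a factor of granulocyte development, fell by 1.51 in Jak2V617F, Myb by 0.77, Spi1, which encodes PU.1, by 0.59 and Gata1 by 0.50, while Lmo2 was higher by 1.24 in both backgrounds. Between the backgrounds, 7 were higher and 2 lower in Jak2V617F with GLUT1/3 intact, and 8 were higher and 2 lower among the dKO clones, where 30.3% and 17.1% of all tested genes were called.

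Marker lists of other lineages also differed between the backgrounds. Of the 7 neutrophil markers tested, 5 were lower and 1 higher in Jak2V617F in both comparisons of backgrounds, where 30.3% of all tested genes were called with GLUT1/3 intact and 17.1% among the dKO clones, and their summed level was 84.6 to 217 FPKM in the Jak2WT libraries and 8.49 to 36.8 FPKM in the Jak2V617F libraries. Of the 5 megakaryocyte markers tested, 3 were higher with GLUT1/3 intact and all 5 were higher in Jak2V617F among the dKO clones, where voom called 3 and 4. Of the 3 granulocyte and monocyte progenitor markers tested, 1 was higher and 1 lower in Jak2V617F with GLUT1/3 intact. Their list summed there to 52.5 to 53.1 FPKM in Jak2WT and 30.2 to 34.5 FPKM in Jak2V617F. Of the 2 mast cell and basophil markers tested, Cpa3 was lower in Jak2V617F in both (-5.82 and -5.47), and Gata2 was not called. The lymphoid marker tested, Cd79b, was higher by 0.53 in the Jak2V617F than in the Jak2WT dKO clones.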
